A study of Mus musculus with 12 samples.

Results

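The regions described here are 2 stretches of the mouse genome in which Okazaki fragment sequencing (OK-seq) gave fewer reads in cells with catalytically dead KMT2C and KMT2D (dCD) than in control cells. They were chosen by that deficit, and comprise 15000 bins of 1 kb on chr4:105000001-120000000 and 20702 bins on chromosome 18 from position 70000001 to the end, 35702 of the 2633767 bins on the autosomes and chromosome X (build mm10). In 100 kb windows, 150 cover the chromosome 4 region and 208 the chromosome 18 region. Within them, 1 low segment was found on each chromosome. The first, chr4:112100001-114300000, spans 2.2 Mb and 22 windows and holds most of the Skint gene cluster. The second, chr18:79600001-90600000, spans 11 Mb and 110 windows and runs to the last window with enough reads to count. Because the ratio of dCD to control reads chose the segments, that ratio is described here and not tested.

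OK-seq was measured in naive ESCs, kept in LIF with 2 inhibitors, and in EpiLCs, the formative state reached on withdrawal of these factors, with 2 biological replicates for each of 6 conditions, 12 samples in all. The control is a KMT2C knockout (KMT2C KO) that still carries an inducible KMT2D allele. Loss of KMT2D in the same cells, induced by 4-hydroxytamoxifen through CreER, gives the double knockout (dKO), and dCD cells carry KMT2C and KMT2D without methyltransferase activity. All 3 genotypes therefore lack KMT2C function or its enzymatic activity, and a wild-type library is not analysed here. By the study's methods, control and dKO cells have a mixed strain background. The catalytic mutants were made in the male R1 line, which derives from a strain that is part of that mix. Genotype, line and strain background thus cannot be told apart in any dCD to control comparison. The deposited tracks hold the replicates of a condition summed. There is thus 1 value per condition, no spread between replicates and no p-value, and every 95% interval below covers counting error only. After 126 bins with very high counts were dropped, depth on the autosomes and chromosome X was 4387433 (control), 3916818 (dKO) and 3637464 reads (dCD) in naive cells, and 11368666, 12918547 and 13573782 in EpiLCs, which is a mean of 138 to 515 reads per 100 kb.

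During replication, the lagging strand is made as short Okazaki fragments, and the strand they map to shows the direction in which a fork travelled. Forks that leave an initiation zone move apart, so the percentage of reads on the Crick strand rises from the left to the right of it and falls where converging forks merge. The number of fragments in a window depends on how many copies of that DNA were replicated during the labelling pulse. In bulk cells, fewer copies of a sequence and fewer fragments per copy cannot be told apart, nor can poorer mapping to mm10 of reads from another strain background. Skint genes encode membrane proteins of the immunoglobulin superfamily that are related to butyrophilins. Skint1, the founding member, is needed for the development of the gamma delta T cells of the mouse epidermis, and the family is known for its expression in thymus and skin.

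All 11 Skint genes lie in 1 cluster on chromosome 4, and every one was matched to at least 1 of 12 RefSeq promoters (250 bases before to 50 after a start, GRCm38.p6). The promoters of 5 of them are shown, chosen by place in the region and by length: Skint1 lies just left of the steep step, Skint3 and Skint9 in the stretch with almost no dCD reads, and Skint6 and Skint5, the longest genes of the segment, further right. Capitals mark bases inside a run of 20 that another Skint promoter also holds on the same strand.
Skint1 promoter, chr4:112006019-112006318, strand +: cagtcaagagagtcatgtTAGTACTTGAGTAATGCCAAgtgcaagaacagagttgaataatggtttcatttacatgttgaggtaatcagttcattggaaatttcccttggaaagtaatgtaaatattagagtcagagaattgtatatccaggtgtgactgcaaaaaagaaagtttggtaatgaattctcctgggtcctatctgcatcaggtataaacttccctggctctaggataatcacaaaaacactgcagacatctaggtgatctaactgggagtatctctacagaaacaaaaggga
Skint3 promoter, chr4:112231995-112232294, strand +: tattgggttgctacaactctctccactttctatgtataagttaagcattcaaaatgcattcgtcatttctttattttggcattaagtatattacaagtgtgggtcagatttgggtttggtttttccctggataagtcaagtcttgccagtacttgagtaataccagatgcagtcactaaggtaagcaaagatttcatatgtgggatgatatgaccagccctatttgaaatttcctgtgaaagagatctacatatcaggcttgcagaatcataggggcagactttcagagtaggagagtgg
Skint9 promoter, chr4:112433936-112434235, strand -: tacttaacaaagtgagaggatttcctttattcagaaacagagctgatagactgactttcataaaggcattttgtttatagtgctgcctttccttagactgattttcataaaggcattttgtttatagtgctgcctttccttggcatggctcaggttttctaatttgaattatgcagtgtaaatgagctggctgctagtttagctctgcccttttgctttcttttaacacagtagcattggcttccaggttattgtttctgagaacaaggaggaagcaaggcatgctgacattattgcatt
Skint6 promoter, chr4:113286924-113287223, strand -: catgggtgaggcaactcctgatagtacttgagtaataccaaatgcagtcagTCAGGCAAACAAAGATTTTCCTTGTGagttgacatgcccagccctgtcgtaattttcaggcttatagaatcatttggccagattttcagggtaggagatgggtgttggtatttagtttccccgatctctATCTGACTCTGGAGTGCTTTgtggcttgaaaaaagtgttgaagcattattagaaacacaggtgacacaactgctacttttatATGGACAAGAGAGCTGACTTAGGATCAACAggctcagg
Skint5 promoter, chr4:113999454-113999753, strand -: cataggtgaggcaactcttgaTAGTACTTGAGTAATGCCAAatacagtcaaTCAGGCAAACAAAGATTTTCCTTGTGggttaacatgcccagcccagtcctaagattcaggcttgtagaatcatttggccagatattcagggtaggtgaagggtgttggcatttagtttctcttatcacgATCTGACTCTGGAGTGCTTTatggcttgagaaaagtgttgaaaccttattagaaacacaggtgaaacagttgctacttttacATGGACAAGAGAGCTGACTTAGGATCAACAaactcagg
Skint5 and Skint6 share the most, 96 and 76 of 300 bases, in runs of up to 30, whereas Skint3 and Skint9 hold no such run. The word AGTACTTGAGTAA, 1 of 2 words of 13 bases that are held by the most Skint genes, occurs in those of Skint1, Skint3, Skint4, Skint5 and Skint6, 5 of 11 genes. Searched on both strands, it occurs in 5 of 32851 promoters of the table (0.0152%), all of them Skint promoters. The Skint promoters hold 0 to 2 CG dinucleotides, against a median of 7 over all promoters. These matches describe the family's sequence and bear on nothing else.

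Over the chromosome 4 low segment, dCD cells had less than 0.25 of the control's share of reads in both states, while dKO cells stayed near 1. In naive cells the segment held 2570 reads in the control, 2234 in dKO and 508 in dCD, or 586, 570 and 140 per 1000000 reads used. In EpiLCs it held 6375, 7165 and 1641 reads, or 561, 555 and 121. The dCD library was thus the low one in each state. Its share ratio to the control was 0.238 (95% interval 0.216 to 0.262) in naive cells and 0.216 (0.204 to 0.228) in EpiLCs, and that of dKO was 0.974 (0.920 to 1.03) and 0.989 (0.956 to 1.02).

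Every one of the 22 windows was under 0.85 of the control in dCD in both states. Over the genome, 14.1% of 25181 windows were under that ratio in naive and 7.43% in EpiLC dCD cells, and 3.64% in both. The rule used this contrast, so nothing is read from the excess. For dKO, likewise given as a description, 3 of the 22 windows were under 0.85 in naive cells (9.85% of all windows), 1 in EpiLCs (3.17%) and 0 in both (0.473%). To the left of the segment, the remaining windows of the region had together 0.988 and 0.990 of the control share in dCD (naive and EpiLC), and to its right 0.992 and 0.977.

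On chromosome 4, the left border of the segment, set in 100 kb windows, fell inside the drop, while the right border fell at its end. Just inside, the window chr4:112100001-112200000 had ratios of 0.048 (naive) and 0.027 (EpiLC), and the last window inside, chr4:114200001-114300000, had 0.333 and 0.397. Just outside, chr4:112000001-112100000 had 0.382 and 0.379 and belongs to the same drop, chr4:111900001-112000000 had 1.0 and 0.722, and chr4:114300001-114400000 had 1.05 and 1.23. Apart from the neighbour at 112000001, 3 windows of the chromosome 4 region were under 0.85 in both states, starting at 108100001, 109300001 and 118300001, with ratios of 0.714 to 0.821.

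**Figure D1:**
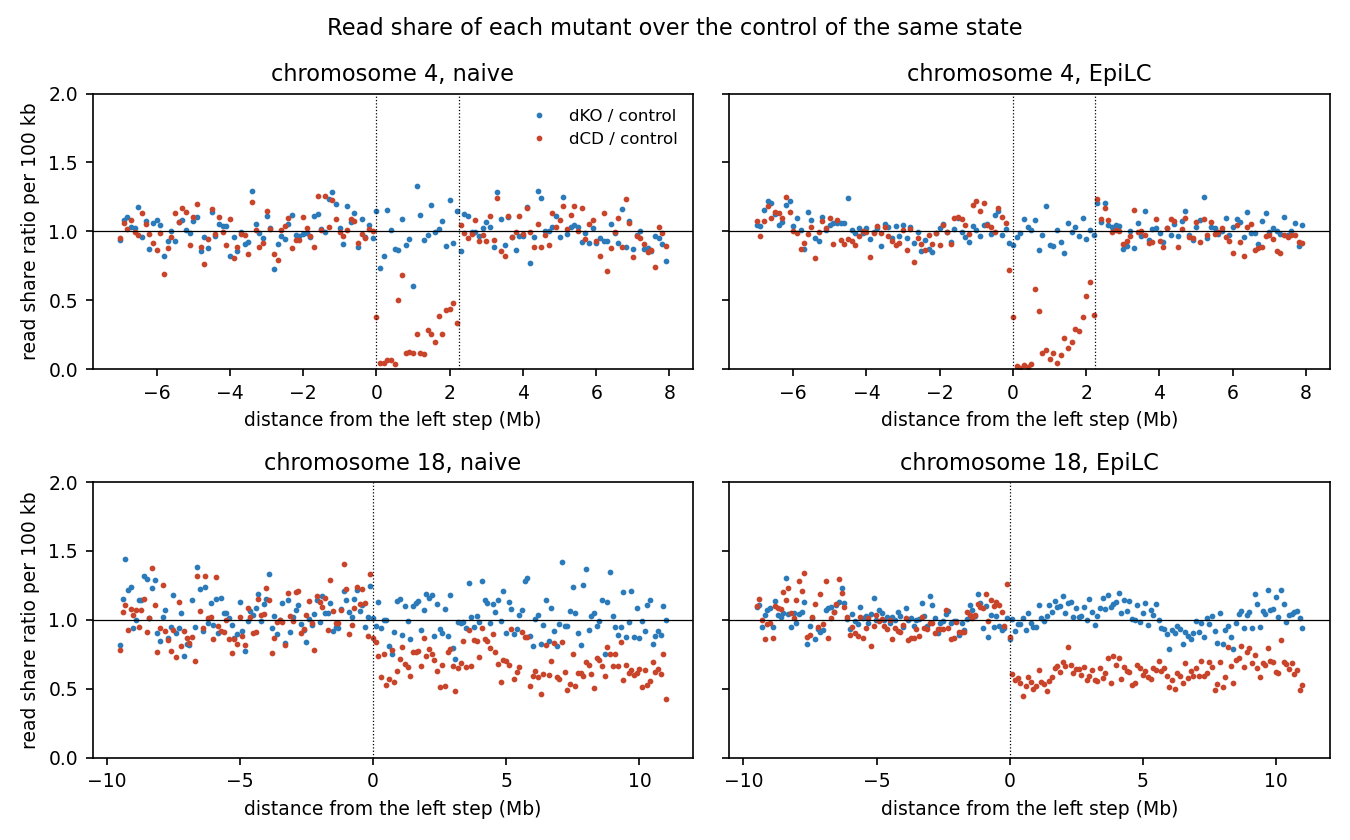
Read share ratio to the control of the same state per 100 kb window (points; vertical axis, linear) against distance from the left step in Mb, for dCD and dKO on chromosomes 4 and 18 in naive cells and EpiLCs. Dotted lines mark the fitted steps. The dCD points drop to a median of 0.225 (naive) and 0.147 (EpiLC) in the chromosome 4 segment and 0.669 and 0.628 in the chromosome 18 segment, and the dKO points stay around 1.

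The loss on chromosome 4 was not even. A partition of 10 kb windows, added after the data were seen, split the segment and its surroundings into 8 levels. Its borders were fitted to both states jointly, so that they are shared by construction. From 111500001 to 111950000 the dCD ratio was 1.0 (naive) and 1.06 (EpiLC). It was 0.612 and 0.596 over the next 110 kb, up to 112060000. It was lowest over chr4:112060001-112600000, 540 kb with Skint4, Skint3 and Skint9. There, 724 reads in the naive control stood against 34 in dCD, and 1681 in the EpiLC control against 49, ratios of 0.0566 (0.0389 to 0.0799) and 0.0244 (0.0180 to 0.0324). The dKO libraries held 602 and 1907 reads in these 540 kb, ratios of 0.931 and 0.998.

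The few dCD reads of this near-empty stretch were spread thinly. They fell in 31 bins of 1 kb in naive cells and 43 in EpiLCs, of 540, with at most 2 and 4 reads in a bin. The controls had reads in 371 and 485 of these bins. Over the whole genome, 9 windows of 100 kb (0.0357%) were under 0.1 of the control in both states, and 5 of them are the windows from 112100001 to 112600000. Of the 34 low segments of the genome found in the same way, 67.6 Mb in all, the chromosome 4 segment had the second lowest ratio in both states and ranked 8 by length. These segments were called on the median of windows with enough reads, while the ratio pools all reads of a segment, and by that ratio 1 of the 34 (chr13:65400001-66600000) was higher in dCD, at 1.69 and 1.77, and another (chr4:60200001-61800000) was at 0.992 and 0.85.

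To the right of the near-empty stretch, 4 further levels followed. The ratio was 0.598 (naive) and 0.525 (EpiLC) over chr4:112600001-112790000, 0.131 and 0.0921 up to 113370000, 0.265 and 0.227 up to 113920000, and 0.459 and 0.511 up to 114300000. Beyond that, up to 114900000, it was 0.995 and 1.09. Reads thus came back in an island of 190 kb, fell again, and returned in steps. In dKO cells, the 5 levels from 112060001 to 114300000 had ratios of 0.931 to 1.06 in both states. The order of the 6 low levels was the same in naive cells and EpiLCs, although the intervals of the 3 highest overlapped those of their neighbours in that order. The ratio of the EpiLC to the naive ratio was 0.431 (0.276 to 0.673) in the near-empty stretch and 0.703 (0.529 to 0.935) in the level that starts at 112790001, and included 1 in the other 4 low levels.

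**Figure D2:**
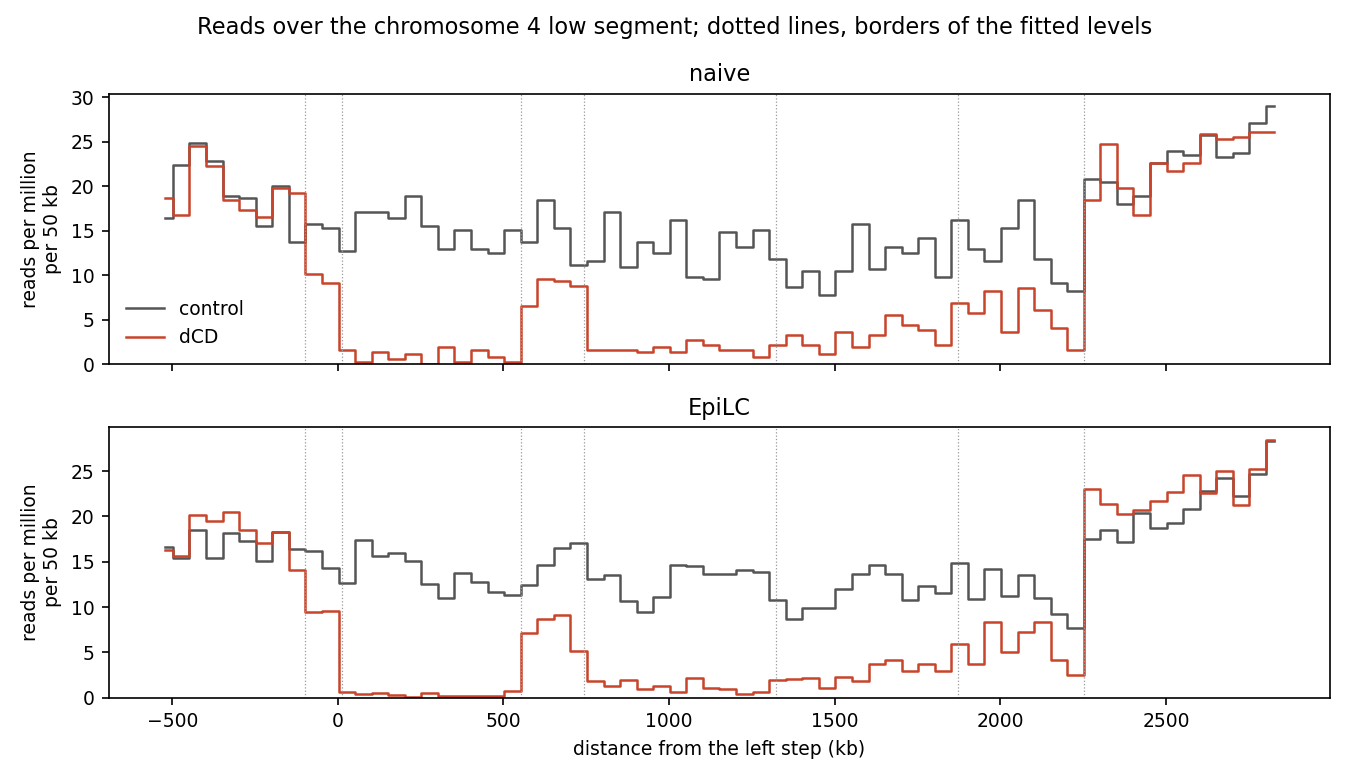
Reads per 50 kb, scaled to 1000000 reads used (vertical axis), against distance in kb from the left step of the chromosome 4 segment, for control and dCD in naive cells and EpiLCs. Dotted lines are the borders of the fitted levels. The dCD line lies near 0 over 540 kb, where 34 (naive) and 49 (EpiLC) reads were left, rises over an island of 190 kb and joins the control line at the right step.

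At 1 kb resolution, the left step of the chromosome 4 segment lay at 112048001 (112047001 to 112048001 within 2 log-likelihood units, both states together). Taken alone, the EpiLC libraries put it at 112048001 and the naive libraries at 112065001 (112054001 to 112070001). With dKO as the reference, the step of both states was again at 112048001. The right step lay at 114298001 (114296001 to 114302001) against the control and at 114299001 against dKO. No protein-coding gene was cut by a step. The left step fell between Skint1, 18.5 kb away, and Skint4, 24.0 kb away. The right step fell between Skint11, 53.0 kb away, and Trabd2b, 109 kb away, which encodes a membrane metalloprotease that acts on Wnt proteins.

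OK-seq reads over a gene count its replicated DNA and do not measure its expression. In the order naive control, dKO and dCD, then EpiLC control, dKO and dCD, Skint3 had 118, 84, 5, 247, 293 and 1 reads. Its dCD ratio was 0.0511 (0.0163 to 0.123) in naive cells and 0.00339 (8.55e-05 to 0.0191) in EpiLCs.

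Skint4 had 145, 108, 5, 352, 391 and 7 reads in the same order, and Skint9 had 62, 53, 3, 134, 177 and 2. These 3 genes lie in the near-empty stretch, and their dCD ratios were all under 0.06. Skint2, which spans its right end, had ratios of 0.256 and 0.381 (naive and EpiLC). Skint10, in the island of 190 kb, had 78, 71, 48, 238, 255 and 125 reads and ratios of 0.742 (0.507 to 1.08) and 0.440 (0.351 to 0.548), the highest naive ratio of the 7 genes inside.

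The 2 longest genes of the segment, Skint5 (522 kb) and Skint6 (482 kb), gave the most reads. Skint6 had 540, 467, 63, 1387, 1559 and 167 reads and ratios of 0.141 (0.107 to 0.183) and 0.101 (0.0854 to 0.118). Skint5 had 557, 511, 144, 1457, 1701 and 458 reads and ratios of 0.312 (0.258 to 0.375) and 0.263 (0.237 to 0.293). The intervals of these neighbours did not overlap in either state. Skint11, the last gene before the right step, had ratios of 0.479 and 0.590.

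Left of the step, Skint1 had 47, 36, 19, 87, 102 and 85 reads. Its dCD ratio was 0.488 (0.270 to 0.847) in naive cells and 0.818 (0.60 to 1.12) in EpiLCs. Skint7 and Skint8, further left, had naive ratios of 1.09 (0.541 to 2.16) and 1.53 (0.922 to 2.55) and EpiLC ratios of 0.714 (0.484 to 1.05) and 0.720 (0.528 to 0.982). The stretches around them had 1.0 (naive) and 1.06 (EpiLC) at Skint8 and 0.612 and 0.596 at Skint7. Both genes were above their stretch in naive cells, and Skint7 also in EpiLCs, with intervals that held the value of the stretch. Skint8 was below its stretch in EpiLCs, where its interval did not hold that value. Skint1, in the same stretch as Skint7, was below it in naive cells, with an interval that held its value. In EpiLCs Skint1 was above it, with an interval that just left out 0.596. These genes rest on 20 to 93 control reads. Trabd2b, right of the segment, had 0.967 (0.831 to 1.13) and 1.12 (1.03 to 1.22). The 7 Skint genes wholly inside the segment, without Skint4, which starts before its first window, were all under 0.85 of the control in both dCD states, as were 5.69% of 14979 protein-coding genes with enough reads, a contrast that the rule used. The median ratio of the 7 Skint genes was 0.256 (naive) and 0.263 (EpiLC) in dCD, and 0.969 and 1.03 in dKO, against 0.993 and 0.977 (dCD) and 0.988 and 1.01 (dKO) over all genes. Besides them, the segment holds 11 annotated pseudogenes and 0 lincRNA genes. None of the 10 genes of the Cyp4 family on this chromosome lies in it.

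**Figure D3:**
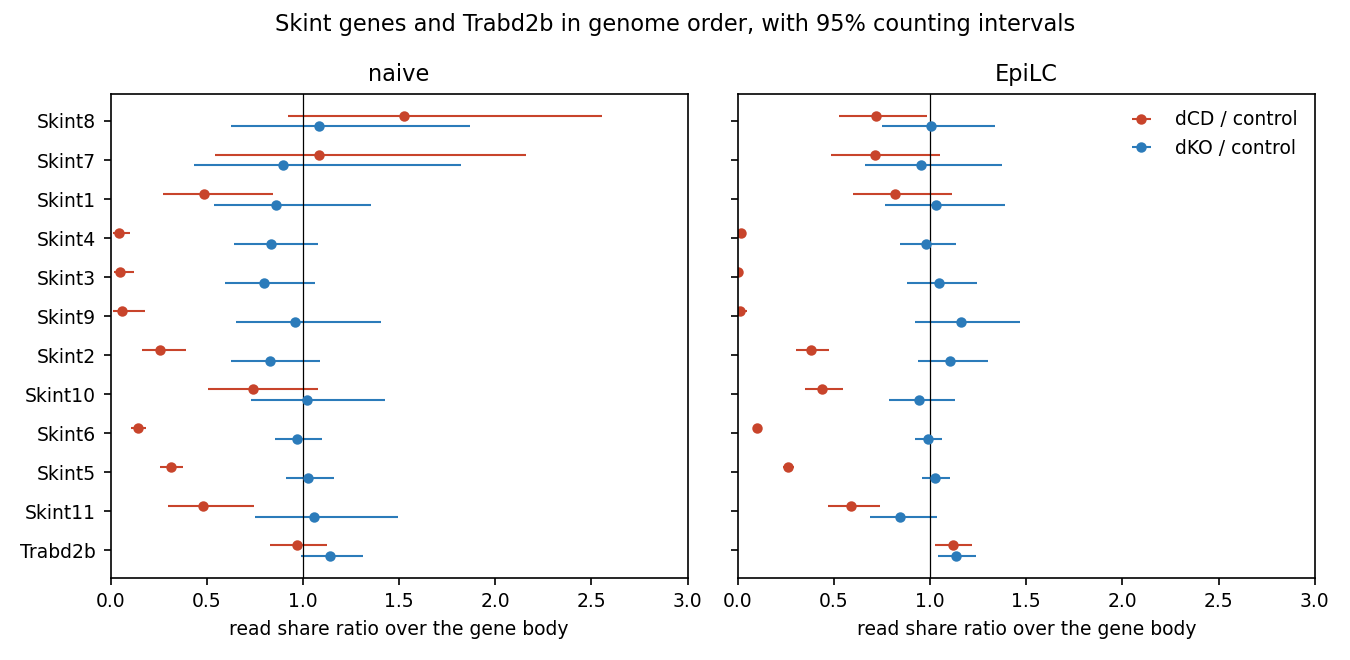
Read share ratio to the control over each Skint gene body and Trabd2b (horizontal axis, linear), in genome order from top to bottom, for dCD and dKO in naive cells and EpiLCs, with 95% counting intervals. Skint4, Skint3 and Skint9 lie nearest to 0 in dCD, at 0.00339 to 0.0584, and the dKO values lie at 0.797 to 1.16 from Skint8 to Trabd2b.

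The chromosome 4 segment was poor in reads in the other libraries too. Its density of reads was 0.681 (naive) and 0.652 (EpiLC) of the genome mean in the control, 0.664 and 0.645 in dKO, and 0.162 and 0.141 in dCD. Its sequence is 37.5% G and C, against 41.8% over all autosomes and chromosome X. Among 6622 windows elsewhere with 36 to 39% G and C, the median dCD ratio was 0.978 (naive) and 1.04 (EpiLC), and 3.79% were under 0.85 in both states. Words of 50 bases that occur more than once within the stretch, on either strand, made up 8.99% of the segment. They made up 7.02% of the equally long stretch to its left, 6.09% of that to its right, and 2.53 to 7.84% in 5 such stretches of the chromosome 18 segment. Counted over the 8 levels together, such words made up 6.22, 6.39, 6.34, 3.30, 8.34, 11.9, 13.9 and 1.15% of levels 1 to 8 from left to right. The lowest shares were thus in the level right of the segment and in the island where reads came back, while the near-empty level, the third, had about the share of the first, which lies outside the segment, and the last low level, with ratios near 0.5, had the highest. The part of repeated sequence in the read loss was not tested.

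Strand was not used to choose the segments. Over the whole chromosome 4 segment, the Crick percentage was 53.7 in the control, 52.4 in dKO and 51.4 in dCD in naive cells, and 51.7, 51.6 and 48.5 in EpiLCs. The difference of dCD from the control was -2.28 points (-7.03 to 2.45) in naive cells and -3.15 (-5.85 to -0.44) in EpiLCs. With the part that follows the excess of T over A in the sequence taken off, it was -0.10 (-4.85 to 4.63) and -2.33 (-5.04 to 0.38), so that both intervals included 0. As a mean over windows with at least 20 reads in dCD and control, the naive value was 1.42 (9 windows) and the EpiLC value 0.97 (16 windows), while over the 9 windows with enough reads in every library the EpiLC mean was -1.34. With libraries thinned to equal size the EpiLC value was 1.61 (-3.53 to 6.70). In the near-empty stretch the difference was -1.26 (-18.2 to 14) and -7.04 (-20.8 to 6.57), so a change in fork direction within these bounds was not detectable at this depth.

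On the flanks, where reads were plentiful, the pooled dCD and control libraries differed in fork direction by more than counting error. In the 250 kb left of the first drop (before 111950001), the Crick percentage in naive cells was 58.0 in the control, 62.0 in dKO and 69.6 in dCD. In the 250 kb right of the right step it was 39.6, 39.3 and 29.1. The dCD library was thus the farthest from 50 on both sides, with rightward forks more common on the left and leftward forks on the right. In EpiLCs the left flank had 62.2, 64.2 and 68.6 and the right flank 42.4, 40.7 and 37.8, in the same order.

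The differences of dCD from the control were 11.6 points (4.50 to 18.4) on the left and -10.5 (-16.9 to -3.94) on the right in naive cells, and 6.35 (2.33 to 10.4) and -4.59 (-8.48 to -0.71) in EpiLCs. The 4 dKO differences over these 250 kb flanks lay between -1.72 and 4.01, with intervals that included 0. In the 500 kb left of the left step, however, naive dKO was above the control by 5.53 points (0.57 to 10.4), and dCD was above dKO by 4.56 (-0.68 to 9.76), an interval that included 0. Over the genome, 5.43% of 10080 windows of 250 kb differed between dCD and control by at least 10 points in naive cells and, the same way, by at least 4 in EpiLCs, limits that were set after these values were seen. At least 10 points apart were 12.2% (naive) and 1.44% (EpiLC) of these windows in dCD, and 3.36% and 0.456% in dKO. The fall of the Crick percentage from the left to the right flank was -18.4 points (-25.0 to -11.6) in the naive control, -22.7 in dKO and -40.5 (-46.9 to -33.4) in dCD, and -19.8 (-24.0 to -15.5), -23.5 and -30.8 (-34.3 to -27.1) in EpiLCs.

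With flanks of 500 kb the fall was -11.5 (control), -15.9 (dKO) and -28.3 (dCD) in naive cells and -18.0, -18.3 and -26.9 in EpiLCs. With 1000 kb it was -8.78, -6.41 and -11.1 and -8.69, -8.53 and -12.1, where the intervals of dCD and control overlapped in each state. With the part that follows the T minus A content of a bin taken off, the 250 kb flanks gave -12.1 (control), -15.8 (dKO) and -31.5 (dCD) in naive cells and -15.0, -17.9 and -25.3 in EpiLCs. Fork direction was also steeper in dCD elsewhere: over 24961 windows outside the segments, the Crick percentage of dCD rose by 1.26 (naive) and 1.23 (EpiLC) points per point in the control.

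**Figure D4:**
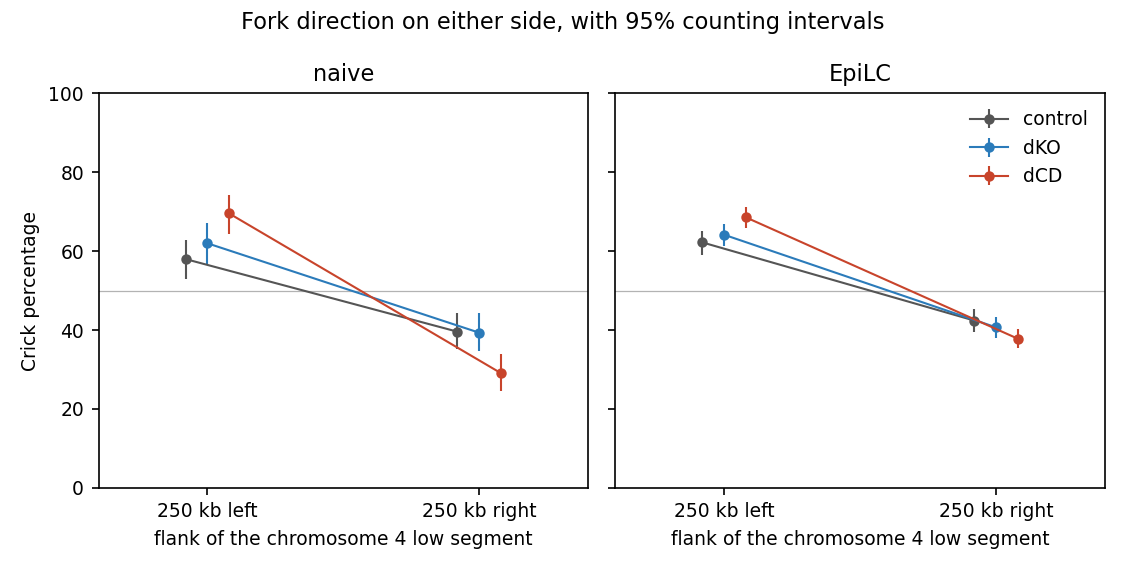
Crick percentage (vertical axis) in the 250 kb left of the first drop and the 250 kb right of the right step of the chromosome 4 segment, for control, dKO and dCD in naive cells and EpiLCs. Points are pooled libraries with 95% Wilson intervals, joined by lines. The dCD line falls most in both states, by -40.5 and -30.8 points, against -18.4 and -19.8 in the control.

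On chromosome 18 the loss was shallower, longer and more even. The segment held 17086 reads in the control, 15389 in dKO and 9681 in dCD in naive cells, or 3894, 3929 and 2661 per 1000000 reads used. In EpiLCs it held 43414, 50358 and 32001, or 3819, 3898 and 2358. Over the segment as a whole, again only the dCD library was low. The dCD share ratio was 0.683 (0.667 to 0.701) in naive cells and 0.617 (0.609 to 0.626) in EpiLCs, and the dKO ratio 1.01 (0.987 to 1.03) and 1.02 (1.01 to 1.03). The 9.6 Mb of the region left of the segment had 1.01 and 0.999 of the control share in dCD. Among the 34 low segments of the genome, it ranked 2 by length, and 10 (naive) and 8 (EpiLC) from the lowest ratio, whose median ratios were 0.746 and 0.723.

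Of its 110 windows, 100 were under 0.85 in naive dCD cells (14.1% of all windows), 109 in EpiLC dCD cells (7.43%) and 99 in both (3.64%), a contrast that the rule used. Of the 96 windows with enough reads left of it, 13, 1 and 0 were. In dKO, 11 windows of the segment were under 0.85 in naive cells (9.85% of all windows) and 5 in EpiLCs (3.17%), with 2 in both (0.473%), so the naive count was near the share of the genome. Inside the segment, the dCD ratio ranged from 0.426 to 0.944 in naive cells and from 0.448 to 0.854 in EpiLCs. At the threshold, the first window inside, chr18:79600001-79700000, had 0.837 and 0.611, and its neighbour outside, chr18:79500001-79600000, which holds the step, had 0.868 and 0.877.

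Split into 4 equal parts from left to right, the segment had naive dCD ratios of 0.686, 0.730, 0.653 and 0.644 and EpiLC ratios of 0.587, 0.615, 0.607 and 0.672. The EpiLC ratio was the lower one over the whole segment, at 0.903 (0.878 to 0.930) of the naive ratio. That difference lay in the first 3 parts (0.856, 0.842 and 0.929 of the naive ratio, with upper bounds of 0.903, 0.888 and 0.991). In the last part the EpiLC ratio was 1.04 (0.980 to 1.11) of the naive ratio. In dKO the same quotient over the segment was 1.01 (0.987 to 1.04), with 0.899 (0.85 to 0.951) in the third part and 1.06 (1.01 to 1.11) in the second. The EpiLC dKO ratio to the control was itself under 1 in the third part, at 0.919 (0.894 to 0.945). In naive dKO cells and in the other parts, dKO ratios were 0.998 to 1.07.

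The chromosome 18 step lay at 79559001 (79558001 to 79561001), at 79558001 in the naive and 79560001 in the EpiLC libraries, and at 79560001 with dKO as the reference. It fell between protein-coding genes, 450 kb right of Setbp1, which encodes a SET-binding protein, and 488 kb left of Pard6g, a cell polarity gene. Setbp1 had 615, 615, 557, 1724, 1940 and 2273 reads in the order used above, and a dCD ratio of 1.09 (0.972 to 1.23) in naive cells and 1.10 (1.04 to 1.18) in EpiLCs. Pard6g had 180, 163, 91, 470, 505 and 261 reads and ratios of 0.610 (0.469 to 0.789) and 0.465 (0.398 to 0.542). No right step was found, since the low level ran up to 90600000, after which windows had under 20 control reads.

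The segment holds 36 protein-coding genes, 3.27 per Mb against 8.26 over the genome, with 49 lincRNA genes and 60 pseudogenes. The 30 genes with at least 20 reads in both controls had a median dCD ratio of 0.660 (naive) and 0.604 (EpiLC), and a median dKO ratio of 0.968 and 1.04. Of them, 26 were under 0.85 in dCD in naive cells (21.9% of all genes) and 30 in EpiLCs (15.0%), with 26 in both (5.69%). These dCD counts follow from how the segment was chosen. In dKO, 7 were under 0.85 in naive cells (21.6% of all genes) and 1 in EpiLCs (7.10%).

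The longest genes measured the loss best. Dok6, an adaptor of receptor tyrosine kinases (477 kb), had 603, 526, 303, 1486, 1867 and 1206 reads and dCD ratios of 0.606 (0.526 to 0.697) and 0.680 (0.629 to 0.734). Zfp407, a zinc finger gene of 462 kb, had 871, 831, 486, 2262, 2656 and 1655 reads and ratios of 0.673 (0.601 to 0.753) and 0.613 (0.575 to 0.653). Their naive and EpiLC intervals overlapped.

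Socs6, of the suppressor of cytokine signalling family, had 0.763 and 0.698, and Atp9b, a member of the phospholipid flippase family, 0.662 and 0.553. Rttn, a centriole gene and the only one of 12 genome maintenance genes inside a segment, had 315, 263, 166, 683, 813 and 542 reads and ratios of 0.636 (0.523 to 0.770) and 0.665 (0.593 to 0.745). Cyb5a, cytochrome b5 and the only one inside of 16 genes of lipid and carbon metabolism, had 107, 92, 38, 231, 278 and 134 reads and ratios of 0.428 (0.288 to 0.626) and 0.486 (0.390 to 0.604). Of 7 chromatin genes, Adnp2 lay inside, at 0.798 and 0.598.

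Of 16 neural and developmental genes, 6 lay inside. Mbp, which encodes myelin basic protein, had 237, 203, 155, 540, 661 and 366 reads and ratios of 0.789 (0.640 to 0.970) and 0.568 (0.496 to 0.649). Nfatc1, a calcineurin-regulated transcription factor, had 0.768 and 0.617, the galanin receptor gene Galr1 0.851 and 0.648, the zinc finger gene Tshz1 0.853 and 0.612, and Neto1, an auxiliary subunit of kainate receptors, 0.575 and 0.607. Cbln2, a synaptic organiser, had too few reads (13 in the naive control). The 5 with enough reads had a median of 0.789 and 0.612, with 3 (21.9% of all genes) and 5 (15.0%) under 0.85. The 8 list members outside the segments with enough reads had medians of 0.930 and 0.961, with 2 and 0 under 0.85. That contrast follows from how the segments were chosen and is no result about these genes. None of 4 Smad signalling genes, which lie on chromosome 18 left of the segment, was inside.

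Averaged over the chromosome 18 segment, fork direction differed between genotypes by under 2 points. The Crick percentage over the segment was 47.8 in the control, 48.7 in dKO and 49.5 in dCD in naive cells, and 48.7, 49.1 and 49.0 in EpiLCs. The difference of dCD from the control was 1.74 points (0.50 to 2.99) in naive cells, where dKO differed by 0.91 (-0.18 to 2.0), and 0.28 (-0.45 to 1.0) in EpiLCs. Over the 110 windows, the Crick percentage of dCD followed that of the control with Pearson's r of 0.857 (naive) and 0.913 (EpiLC), beside 0.876 and 0.917 over 766 windows in the rest of the chromosome and 0.871 and 0.914 for dKO inside. These correlations are across windows of 2 libraries, which share base composition and differ in depth, and are given as a description.

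Windows at least 10 points apart numbered 24 of 110 in naive and 7 in EpiLC dCD cells, beside 23.5% and 4.65% of all windows. In dKO they numbered 14 (13.3%) and 2 (2.40%). With counting noise taken off, the SD of the difference between dCD and control over these windows was 5.87 points (naive) and 3.29 (EpiLC), and 6.12 and 3.88 over the windows outside the segments. At the step itself, the 500 kb on the left differed between dCD and control by -2.91 points (-7.80 to 2.01) and 0.20 (-2.53 to 2.93), and the 500 kb on the right by -4.18 (-9.89 to 1.71) and -2.75 (-6.07 to 0.60). In the 250 kb left of the step, the naive Crick percentage was 46.8 in the control, 37.7 in dKO and 36.8 in dCD. Both naive mutants are set there against the same control library, and the EpiLC differences were -0.86 (dCD) and 2.01 (dKO).

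**Figure D5:**
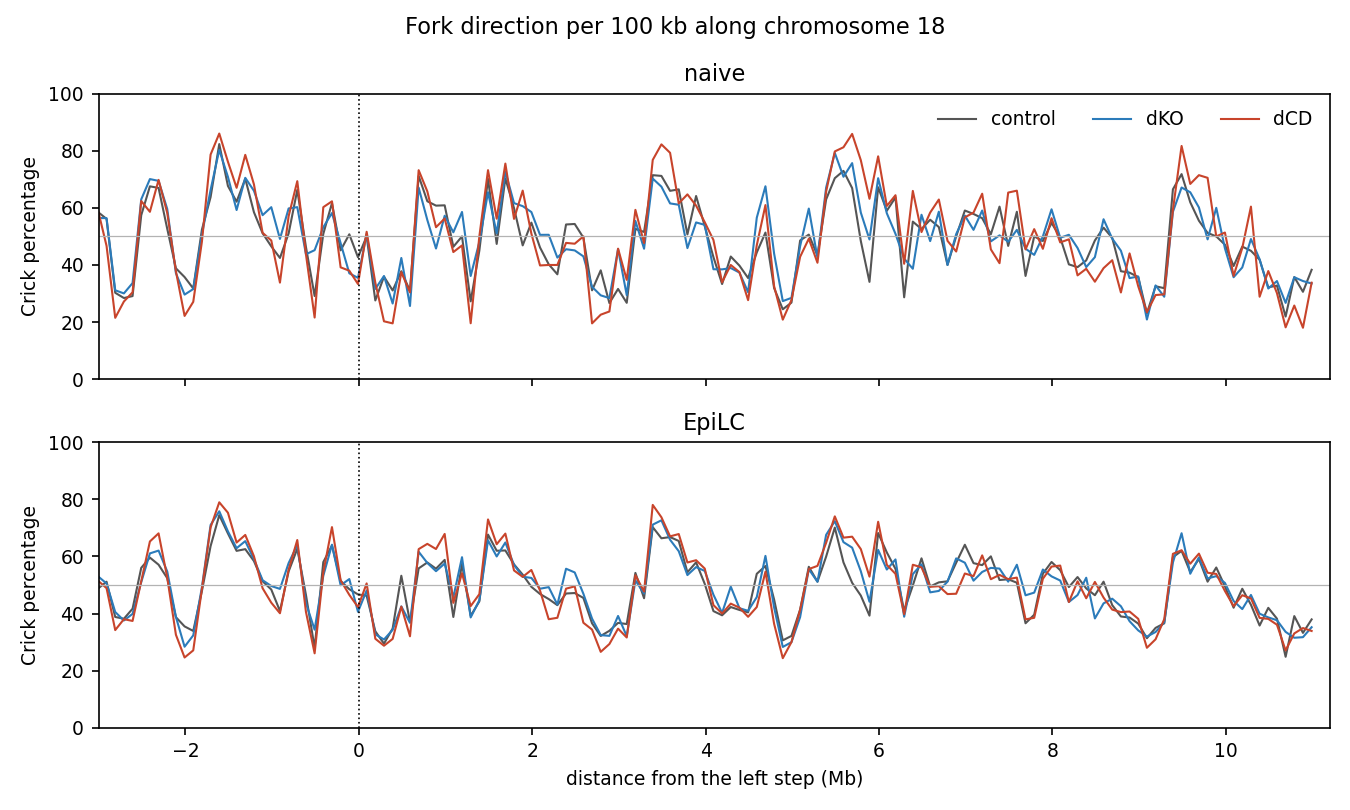
Crick percentage per 100 kb (vertical axis) against distance in Mb from the left step of the chromosome 18 segment (dotted line), for control, dKO and dCD in naive cells (top) and EpiLCs (bottom). To the right of the step, r between dCD and control was 0.857 (naive) and 0.913 (EpiLC), and 24 (naive) and 7 (EpiLC) of the 110 windows were at least 10 points apart.

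Initiation within the segment was read at rises of the Crick percentage. At 35 of its 36 transcription start sites (TSSs), those with enough reads, the mean rise in Crick percentage from the 25 kb before the site to the 25 kb after it, in order of coordinates, was 11.4 points in the naive control, 14.1 in dKO and 11.1 in dCD, and 8.10, 9.97 and 9.64 in EpiLCs. The dCD differences from the control were -0.30 (-5.85 to 5.25) and 1.54 (-1.78 to 4.86). These intervals take the sites as independent. Some sites lie so close that they share reads, so the intervals may be too narrow. On chromosome 4, 2 of 7 TSSs had enough reads, and no mean is given.

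The 5 steepest rises over 250 kb on either side were picked in the mean of the controls, which favours high control values. At the steepest, 88900001, within Socs6 and close to its start, the rise was 37.0 (control), 33.2 (dKO) and 42.6 points (dCD) in naive cells and 25.1, 25.4 and 27.6 in EpiLCs. At 80190001, between Adnp2 and Rbfa, a gene of mitochondrial ribosome assembly, it was 33.6 (28 to 39), 25.6 (19.2 to 31.8) and 35.6 (27.6 to 43.0) in naive cells. In EpiLCs it was 12.9 (9.17 to 16.6), 19.1 (15.6 to 22.6) and 26.5 (21.9 to 31.0), and the intervals of dCD and control did not overlap, with dCD the higher one. The rises at 82910001 and 80960001 were also present in all libraries, at 16.5 points or more in naive cells and 15.9 or more in EpiLCs.

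The fifth lay at 85500001, in the gene-poor interval between Fbxo15 and Neto1. It was 19.2 (12 to 26.1) in the naive control, 4.99 (-2.59 to 12.4) in dKO and -6.08 (-14.9 to 2.74) in dCD, and 20.2 (16.0 to 24.3), 6.19 (1.95 to 10.4) and 4.71 (-0.35 to 9.72) in EpiLCs. In the 250 kb to its left, from 85250001, the Crick percentage was 43.1 (control), 57.7 (dKO) and 75.3 (dCD) in naive cells and 43.3, 52.0 and 58.5 in EpiLCs. The position was picked for its high control values, and both mutants are set against those same control libraries, so whether the mutants differ there was not tested. The window chr18:85500001-85600000 was also 1 of the 2 windows of the segment in which dKO was under 0.85 of the control in both states (0.473% of all windows), with 0.813 and 0.792. The other was chr18:87300001-87400000, with 0.821 and 0.831.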

How the data were processed

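Per the study's methods, the authors mapped the OK-seq reads with Bowtie2 (mm10) and used OK-seq scripts to count each strand in 1 kb bins. The submitters' processing notes also name FastQC, Trim Galore and Picard. Whether duplicates were removed is not given in the sources used here. The deposited files hold, per condition, the signal of each strand as read density in 1 kb bins, with the 2 replicates summed and no scaling for library size. Values were whole multiples of 0.001 and were multiplied by 1000 to give reads. Each position marks where its bin ends: read that way, 74135 kb of pure N sequence held 0 reads, whereas reading it as the start gave 3045.

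Autosomes and chromosome X were used, and 126 bins with over 10 times the median were dropped, 0 of them in the 2 regions. A read share is the reads of a region over all reads used. Windows with under 20 reads in either control were not counted. Segments came from optimal partitioning of log2 ratios of both states over all chromosomes, with a penalty of 6 times the log of the number of windows. At least 3 windows with a median ratio under 0.85 in both states made a low segment. The procedure was also run on simulated reads with planted segments, and the outcome is not given here. Those reads came from a profile shared by all libraries, so they cannot show how often such segments arise between different lines. Steps were placed at 1 kb by binomial likelihood within 500 kb. Alternative window sizes, thresholds, penalties, references, single strands, T minus A correction and thinned libraries were tried, and the inner levels and wider flanks of chromosome 4 were added after the data were seen. Share ratios have exact intervals, Crick percentages (C/(W+C)) Wilson and their differences Newcombe intervals, at 95%. No molecular identifiers are described, so reads may share a molecule. Genes are those of GENCODE M21 on GRCm38. Genes were named if they belonged to lists of genome maintenance, Smad signalling, chromatin, metabolic, neural, Skint and Cyp4 genes and lay in a segment, were among the 5 longest in a segment, or lay next to a step. Rbfa, Fbxo15 and genes that only place a position were named after their values were seen. The members and lists were chosen with earlier results of these data known. Python 3.11.15, NumPy 2.4.6, SciPy 1.17.1 and pandas 2.3.3 were used.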

Additional observations from a re-analysis of the deposited data

How the results depend on the processing

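No paired analysis was possible because the deposited tracks hold the replicates of a condition summed, and leaving out 1 replicate could not be run for the same reason. The extent of both segments stayed within 1.5 times of the reported length under all 9 alternatives (2.2 to 2.5 Mb on chromosome 4 and 10.9 to 11.05 Mb on chromosome 18). Every dCD share ratio of the segments stayed under 1. The following left the counting interval of the reported value. On chromosome 4, the naive ratio was 0.318 over the wider extent fitted on EpiLC libraries, and the EpiLC ratio was 0.147 as a median over windows, 0.229 on Watson and 0.203 on Crick reads. On chromosome 18, the naive ratio was 0.661 on Watson and 0.708 on Crick reads, and the EpiLC ratio was 0.628 as a median over windows and 0.605 with dKO as the reference. The Crick percentage difference of the chromosome 4 segment in EpiLCs reversed, from -3.15 to 0.97 as a mean over the 16 windows with at least 20 reads in dCD and control and to 1.61 with libraries thinned to the smallest, but was -1.34 over the 9 windows with at least 20 reads in every library. In naive cells, where its interval included 0, it turned from -2.28 to 1.42 as a mean over 9 windows. The cause was not tested. Depth limits values in the near-empty stretch of chromosome 4, where naive dCD had 34 reads.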

Other observations

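Fork merging in the chromosome 18 segment was read at the 5 steepest falls of the Crick percentage over 250 kb on either side, picked in the mean of the controls. At 85250001, the right side of the fall is the same 250 kb as the left side of the rise at 85500001, so both describe 1 stretch. The fall was -29.2 points (-35.9 to -22.1) in the naive control, -17.5 (-24.2 to -10.4) in dKO and -5.10 (-12.8 to 2.66) in dCD. In EpiLCs it was -17.4 (-21.8 to -12.8), -14.6 (-18.8 to -10.4) and -11.0 (-15.9 to -6.05). At 85760001, right of that rise, the fall was -21.1, -20.1 and -9.66 (-20.4 to 1.2) in naive cells and -16.7, -9.26 and -14.5 in EpiLCs. The falls at 84330001, 83580001 and 82230001 were present in all 6 libraries, at -12.3 points or steeper. The dCD values rest on 304 to 548 reads in naive cells at these 5 positions.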
